A study of Mus musculus with 12 samples.

Results

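Fatty acid desaturases place double bonds in fatty acyl chains and fatty acid elongases lengthen them, and 9 genes of these enzymes were examined in mouse liver: Scd1, Scd2, Fads1, Fads2, Elovl1, Elovl2, Elovl3, Elovl5 and Elovl6. They were taken by symbol from a table of RNA-seq counts with 24527 gene symbols, and all 9 were found. A set of 13204 genes passed a filter on low counts, and 9 of the 9 were among them. The study asked how conception by in vitro fertilization (IVF), where sperm meets egg in a dish and the embryo is then carried by a foster mother, affects the adult liver and whether the effect depends on sex.

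The 12 livers came from mice aged 39 weeks whose mothers were CF1 females and whose fathers were B6SJL males. All groups shared this cross. The natural females and natural males were conceived by mating, and the IVF females and IVF males by an IVF protocol of the Jackson Laboratory, with n = 3 libraries in each of the 4 groups. Poly-A selected RNA of snap-frozen tissue, a mixture of all liver cells in which fewer cells of a type and less RNA per cell cannot be told apart, was sequenced. Total counts ran from 6826534 to 27832271 per library. The smallest totals belonged to IVF female replicate 1 and natural female replicate 2, with 6826534 and 8056230 counts. Levels are given as CPM, counts relative to the library total after scaling between libraries by the trimmed mean of M-values (TMM). The spread is that between livers whose labels do not say whether they came from separate litters. The titles of IVF female replicate 1 and IVF male replicate 2 share a number whose meaning is not given, and p-values measure that spread only.

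Long-chain fatty acids are made in the liver as saturated chains by fatty acid synthase. Elovl6 lengthens such chains, and the stearoyl-CoA desaturases Scd1 and Scd2 turn saturated into monounsaturated acyl chains, the main acyl groups of stored and exported triglyceride. Essential polyunsaturated fatty acids from the diet are handled by a separate series, in which Fads2 and Fads1 desaturate and Elovl5 and Elovl2 elongate toward arachidonic and docosahexaenoic acid. Elovl1 and Elovl3 act on saturated and monounsaturated chains of greater length. In rodents the desaturases and several elongases are known targets of the sterol regulatory element binding protein SREBP-1c, and Elovl3 is known for its dependence on sex hormones and on the time of day.

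In the GENCODE M21 annotation of the GRCm38 build, 5 of the 9 genes lie on chromosome 19. Scd1 spans 44394455 to 44407879 on the minus strand and Scd2 spans 44293674 to 44306864 on the plus strand. Fads2 lies at 10062765 to 10101746 (minus strand) beside Fads1 at 10182888 to 10196877 (plus strand). Elovl3 lies at 46131897 to 46135694 (plus strand). The others are spread over the genome, with Elovl1 on chromosome 4 at 118428093 to 118432953, Elovl2 on chromosome 13 at 41182381 to 41220405, Elovl5 on chromosome 9 at 77917364 to 77984519 and Elovl6 on chromosome 3 at 129532355 to 129638495.

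The neighbouring Scd genes share coding sequence, which bears on how reads of 1 gene can be told from those of another. The longest run that the coding sequences of Scd1 and Scd2 have in common is 147 bases, bases 523 to 669 of the 1065 coding bases of Scd1, read from GENCODE M21. It is shown in lower case, since no letter in it differs between the genes.
Scd1 and Scd2 shared run: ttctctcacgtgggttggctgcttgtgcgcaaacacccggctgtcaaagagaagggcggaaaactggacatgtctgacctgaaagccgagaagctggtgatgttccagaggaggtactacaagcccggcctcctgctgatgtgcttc
Of all 50-base windows of the longest Scd1 transcript, 3.03% also occur in Scd2, 3.49% in Scd3 and 1.76% in Scd4. Of those of Scd2, 2.68% occur in Scd1. How the authors' counting treated reads that match more than 1 gene is not given in the sources used here, so the counts of Scd2, Scd3 and Scd4 may hold some reads of the far more abundant Scd1. Fads2 shares 0.161% of its windows with Fads3, and no other window of this length was shared between the FADS genes or between the Elovl genes compared.

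The RefSeq promoter table (GRCm38.p6) held entries for Elovl1, Elovl2, Elovl5, Elovl6 and Fads2. Those of Elovl2 and Fads2, each of which varied between livers with Elovl5 as described further on, of Elovl5 itself, and of Elovl6, which did not vary with them, are shown as the 250 bases before the start site, 5′ to 3′ on the gene's strand. Capitals mark the letters of 8 motifs searched on both strands. The table held 2 windows for Elovl2, of which the upstream one is shown, chr13:41220404-41220653 on the minus strand. The other windows are for Elovl5 chr9:77917115-77917364 on the plus strand, for Fads2 chr19:10101504-10101753 on the minus strand and for Elovl6 chr3:129532136-129532385 on the plus strand.
Elovl2: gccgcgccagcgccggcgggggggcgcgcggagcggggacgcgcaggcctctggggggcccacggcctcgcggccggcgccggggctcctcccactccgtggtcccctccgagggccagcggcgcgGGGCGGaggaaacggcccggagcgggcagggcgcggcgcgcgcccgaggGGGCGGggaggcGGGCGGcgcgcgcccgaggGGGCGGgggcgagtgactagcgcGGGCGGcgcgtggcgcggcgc
Elovl5: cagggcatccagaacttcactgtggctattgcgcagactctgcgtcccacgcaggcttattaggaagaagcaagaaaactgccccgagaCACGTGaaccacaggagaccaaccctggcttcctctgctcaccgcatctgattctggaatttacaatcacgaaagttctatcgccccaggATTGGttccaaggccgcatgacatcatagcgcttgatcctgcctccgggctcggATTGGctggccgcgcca
Fads2: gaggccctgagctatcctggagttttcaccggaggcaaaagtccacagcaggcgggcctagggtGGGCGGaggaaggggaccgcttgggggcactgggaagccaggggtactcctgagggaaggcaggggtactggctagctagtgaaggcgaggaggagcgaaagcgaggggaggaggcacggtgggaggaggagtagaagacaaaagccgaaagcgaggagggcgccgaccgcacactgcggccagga
Elovl6: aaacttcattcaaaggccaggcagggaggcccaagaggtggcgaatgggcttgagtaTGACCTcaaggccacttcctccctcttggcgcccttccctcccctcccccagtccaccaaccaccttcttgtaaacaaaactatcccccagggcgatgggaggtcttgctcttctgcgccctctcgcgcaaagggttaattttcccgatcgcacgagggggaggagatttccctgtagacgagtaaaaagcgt
The Elovl2 window shown held 5 matches to the GC box GGGCGG, in a sequence of 87.2% G and C. The other Elovl2 window, chr13:41220163-41220412, held 0 matches to each of the 8 motifs. The Fads2 window held 1 GC box. In the Elovl5 window there were 2 matches to the CCAAT box, both on the opposite strand and printed as ATTGG, and 1 E-box CACGTG. The Elovl6 window held 1 nuclear receptor half-site, AGGTCA, printed as TGACCT. These letters are common: among 32851 promoter windows of the same length, 32.7% held a GC box, 33.8% a CCAAT box, 6.02% an E-box and 14.0% the half-site. No motif was found in all 4 windows. The TATA box TATAAA occurred in 12.4% of all windows and in none of these 4, nor did the STAT site TTCNNNGAA (7.02% of all windows) or the nuclear receptor repeats DR1 AGGTCANAGGTCA (0.0335%) and DR4 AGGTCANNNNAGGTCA (0.0152%). None of the searched motifs overlapped another in these 4 windows. A match is a description of the letters and no evidence of binding.

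To compare genes with each other, CPM were divided by the length of the gene's exons in kb. On this scale Scd1 had the highest mean of the 9 messenger RNAs in each of the 4 groups. It stood at 535 ± 645 CPM per kb in IVF females and 256 ± 285 in natural females (SD, n = 3). In males it stood at 573 ± 120 after IVF and 382 ± 252 after natural conception. Single livers differed: Scd1 was below Elovl2 in IVF female replicate 2 (17.0 against 224) and natural male replicate 2 (120 against 162). The same held in natural female replicates 1 and 2 (118 against 157, and 68.0 against 130). In natural females, with a mean of 157 ± 27.2 for Elovl2, the lead of Scd1 was smaller than its SD. Below Scd1 by mean came the genes of the polyunsaturated series. In IVF females Elovl5 stood at 167 ± 39.9, Elovl2 at 164 ± 53.3 and Fads1 at 159 ± 34.9 CPM per kb, differences smaller than the SDs, and Fads2 at 84.3 ± 8.23. The elongases of saturated chains were scarcer. Elovl6 had 17.3 ± 11.5 CPM per kb in IVF females, Elovl1 had 8.93 ± 2.83 and Elovl3 had 1.97 ± 0.781. Scd2, the desaturase best known from brain and other tissues, had 2.45 ± 0.891. By group mean, Scd1 ranked 1 and Fads2 ranked 5 in every group. Elovl3 ranked 9 in IVF females and 8 in natural females (3.05 ± 2.80 CPM per kb), and 6 in IVF males (45.2 ± 29.0) and natural males (39.4 ± 1.77). Per length of the longest transcript, the places of Fads1, Elovl2 and Elovl5 among each other changed. Elovl1 and Elovl6 changed places in natural females and in IVF males, and Scd1 remained first by mean in each group.

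The make-up of the 9 messenger RNAs varied most through Scd1. Its share of their summed CPM per kb ran from 2.23% in IVF female replicate 2 to 70.8% in IVF female replicate 1, 2 livers of the same group. In natural females its share was 20.5%, 12.9% and 47.8% in replicates 1 to 3, in natural males 49.9%, 19.0% and 47.9%, and in IVF males 47.7%, 54.2% and 63.8%. Its share was thus 47.7% or more in 7 of the 12 livers, among them all of the IVF males. The share of Fads1 ran from 7.39% to 25.9% and that of Elovl2 from 6.95% to 29.4%.

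**Figure D1:**
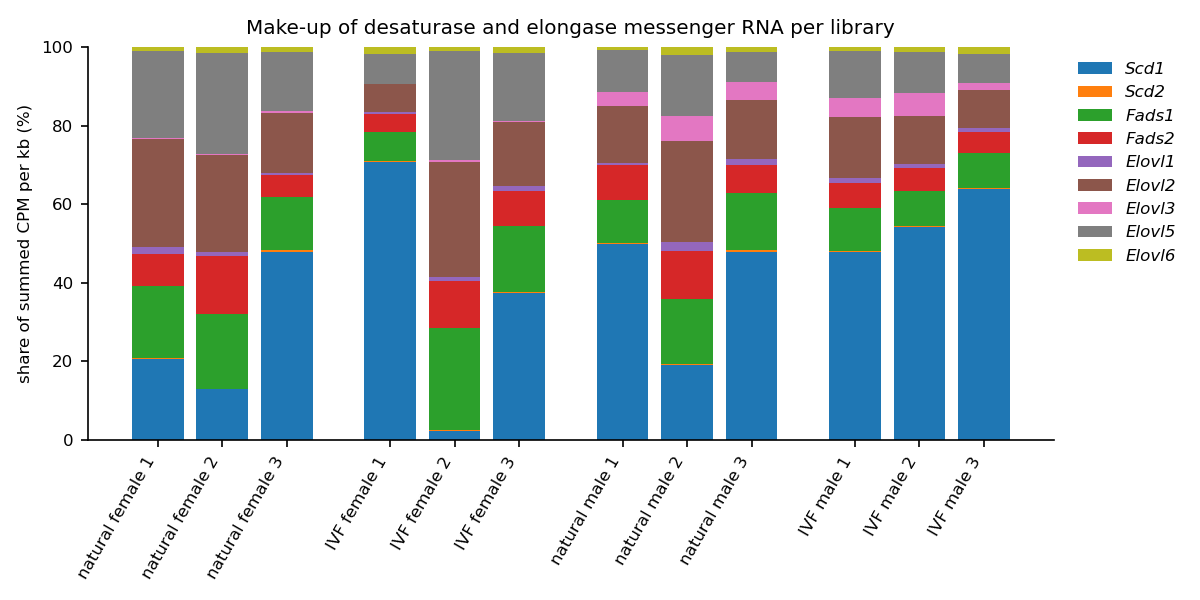
Stacked bars give, for each of the 12 libraries, the share (%) of each gene in the summed CPM per kb of the 9 genes. Scd1 takes 70.8% in IVF female replicate 1 and 2.23% in IVF female replicate 2, and the band of Elovl3 is broadest in the male libraries, at up to 6.18%.

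Scd1 differed more between livers of 1 group than between groups. Its level was 6150, 83.1 and 1620 CPM in the 3 IVF females and 575, 333 and 2860 CPM in the natural females. In males it was 2140, 3250 and 3020 CPM after IVF and 3040, 585 and 1980 CPM after natural conception. The highest and the lowest level among all 12 livers, 73.9-fold apart, both came from IVF females, and the groups overlapped in every comparison. In order of their means, IVF males (2800 ± 585 CPM), IVF females (2620 ± 3150), natural males (1870 ± 1230) and natural females (1250 ± 1390) did not differ from their neighbours beyond the SD. The pooled SD within groups was 1.89 on the log2 scale, at the 99.7th percentile of the 13204 genes tested, whose median SD was 0.383. IVF males, with a coefficient of variation of 20.9%, were the least variable group for Scd1, against 121% in IVF females. The highest Scd1 level came from the library with the smallest total and the second lowest, 333 CPM, from the next smallest.

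Scd2 was low in every group. It had 19.0, 10.1 and 11.1 CPM in IVF females, 9.11, 3.83 and 36.7 in natural females, 17.4, 18.8 and 14.1 in IVF males and 17.7, 13.2 and 17.4 in natural males. Natural female replicate 3 was the highest and natural female replicate 2 the lowest, so that both extremes fell in 1 group again. The group means of 16.8 ± 2.44 CPM (IVF males), 16.5 ± 17.6 (natural females), 16.1 ± 2.52 (natural males) and 13.4 ± 4.87 (IVF females) differed by less than the SDs of the female groups. The ratio of Scd1 to Scd2 CPM ranged from 8.23 in IVF female replicate 2 to 324 in IVF female replicate 1.

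Elovl6, which makes the main substrate of Scd1, also had its highest level in IVF female replicate 1. It was at 193, 49.3 and 90.8 CPM in IVF females and at 43.9, 45.9 and 107 CPM in natural females. Males were between these extremes, with 62.7, 97.8 and 114 CPM after IVF and 71.6, 78.1 and 64.1 CPM after natural conception. All groups overlapped, and the means of 111 ± 73.9 (IVF females), 91.3 ± 26.0 (IVF males), 71.2 ± 7.01 (natural males) and 65.7 ± 36.0 CPM (natural females) did not differ between neighbours beyond the larger SD. Elovl6 spread far less than Scd1, with a pooled SD of 0.655 on the log2 scale, and its ratio to Scd1 ran from 0.0235 in natural male replicate 1 to 0.593 in IVF female replicate 2.

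Fads1, which introduces the last double bond of arachidonic acid, was highest in IVF females and lowest in IVF males. It had 631, 953 and 710 CPM in IVF females and 508, 484 and 795 CPM in natural females. In males it had 487, 525 and 412 CPM after IVF and 657, 504 and 594 CPM after natural conception. The IVF females all lay above the IVF males, while each natural group overlapped its counterparts. Its pooled SD of 0.282 on the log2 scale was below the median of all genes.

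Fads2, which takes the first desaturation step, had 273, 307 and 253 CPM in IVF females and 150, 258 and 224 CPM in natural females. In males it had 194, 235 and 172 CPM after IVF and 357, 254 and 200 CPM after natural conception. The IVF females again all lay above the IVF males, and the other groups overlapped. By group, the order of the means was 278 ± 27.1 (IVF females), 270 ± 80.1 (natural males), 211 ± 55.1 (natural females) and 200 ± 31.9 CPM (IVF males), so that the order of the sexes differed between modes of conception.

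Elovl5, the elongase between the desaturation steps, was lower in most males. It had 484, 748 and 532 CPM in IVF females and 442, 479 and 646 CPM in natural females, against 382, 445 and 254 CPM in IVF males and 470, 347 and 228 CPM in natural males. The IVF males all lay below the IVF females, and natural male replicate 1 lay within the range of the natural females. Elovl2, which extends the longest polyunsaturated chains, had 489, 890 and 572 CPM in IVF females, 623, 515 and 731 in natural females, 562, 590 and 377 in IVF males and 715, 643 and 504 in natural males. Its groups overlapped in all comparisons, with means from 510 ± 116 CPM (IVF males) to 651 ± 212 (IVF females).

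Elovl1, which makes very long saturated chains for sphingolipids, had 23.6, 17.0 and 32.4 CPM in IVF females and 30.2, 15.3 and 20.2 CPM in natural females. In males it had 26.9, 35.0 and 25.8 CPM after IVF and 25.1, 38.9 and 35.7 CPM after natural conception. The means were 29.3 ± 5.03 and 33.3 ± 7.23 CPM in the male groups and 24.3 ± 7.71 and 21.9 ± 7.61 CPM in the corresponding female groups, and all groups overlapped.

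Elovl3 separated the sexes without overlap. It had 91.2, 146 and 31.1 CPM in IVF males and 81.8, 76.8 and 75.0 CPM in natural males. In females it had 2.23, 5.28 and 4.15 CPM after IVF and 2.05, 3.72 and 12.3 CPM after natural conception. The lowest male, IVF male replicate 3, stood above the highest female, natural female replicate 3. Within a sex the groups overlapped, and natural males, at 77.9 ± 3.50 CPM, varied by 4.49% of their mean against 64.2% in IVF males.

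**Figure D2:**
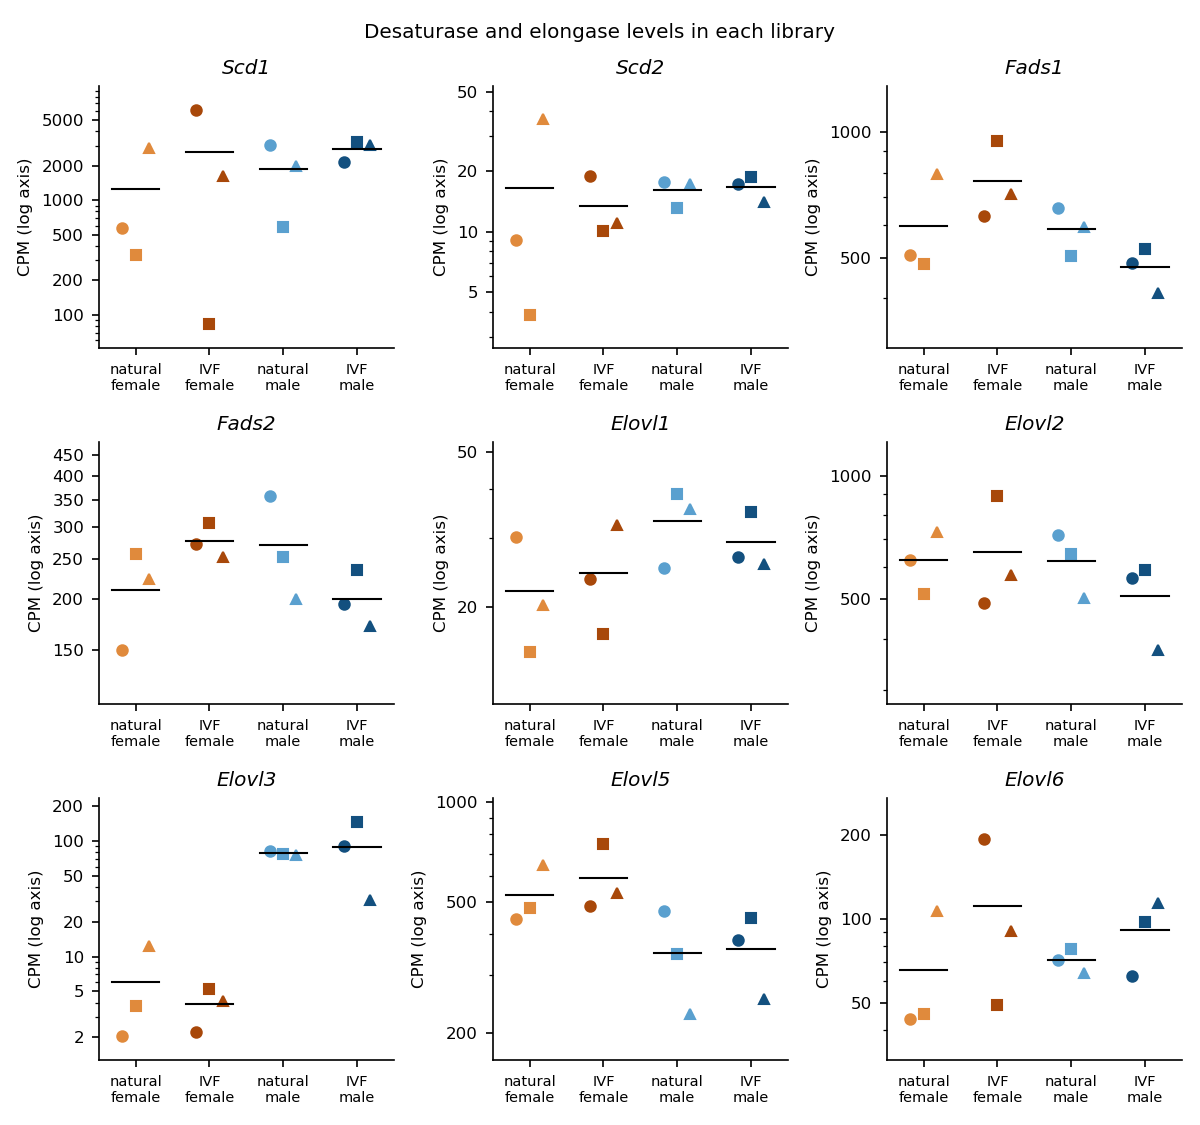
Each panel plots the CPM (log axis) of 1 gene in the 12 libraries by group, with circles, squares and triangles for replicates 1, 2 and 3 and a bar at the group mean. Elovl3 lies at 31.1 CPM or above in all males and at or below 12.3 CPM in all females, and Scd1 runs from 83.1 to 6150 CPM within IVF females.

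The first question of the design was whether IVF changed these genes in either sex. With edgeR's quasi-likelihood test and Benjamini-Hochberg adjustment over 13204 genes, 0 of the 9 genes passed an adjusted p of 0.05 in females, where 0% of all genes did, and 0 of the 9 in males, where 0.00757% did. At an unadjusted p under 0.05 the count was also 0 of 9 in each sex, and it was 0 by DESeq2 and by limma voom at the adjusted threshold. No gene of the 9 had groups that did not overlap in either comparison, against 7.42% of all genes in females and 8.91% in males. The median log2 fold change of the 9 genes was 0.17 in females and 0.05 in males, beside medians of -0.01 and 0.01 over all genes tested.

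In females the log2 fold change of IVF over natural conception was 1.06 ± 1.12 (SE) for Scd1 and 0.75 ± 0.47 for Elovl6. For Fads1 it was 0.36 ± 0.24 and for Fads2 0.40 ± 0.26. Elovl3 had -0.59 ± 0.64. All 5 had an adjusted p of 1.0 by edgeR with Benjamini-Hochberg adjustment, and the differences of Scd1 and Elovl3 were smaller than their standard errors. The value of Scd1 rested on the shallow IVF female replicate 1: it turned to -0.57 without that library and to -1.02 without both shallow libraries. That of Elovl6 turned to -0.11 without both.

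In males the log2 fold change was 0.58 ± 1.11 for Scd1 and 0.36 ± 0.46 for Elovl6, and the desaturases of the polyunsaturated series had -0.30 ± 0.24 (Fads1) and -0.43 ± 0.26 (Fads2). Elovl3 had 0.20 ± 0.60. Again all had an adjusted p of 1.0 by edgeR with Benjamini-Hochberg adjustment. The values of Fads1 and Fads2 were above 0 in females and below 0 in males. A test of that difference between the sexes (the interaction) gave a log2 difference of -0.83 ± 0.36 for Fads2, with an unadjusted p of 0.0411 and an adjusted p of 1.0 in the edgeR model, and -0.66 ± 0.35 for Fads1, with an unadjusted p of 0.0804 and an adjusted p of 1.0. For Scd1 it was -0.47 ± 1.56. Fads2 was the 1 gene of the 9 with an unadjusted p under 0.05 there, beside 3.87% of all genes. After adjustment by edgeR, DESeq2 or limma voom 0 of the 9 passed, and 0% of all genes passed in edgeR. Both signs held in each of the alternatives run, with log2 differences from -1.03 to -0.58 for Fads2 and from -0.95 to -0.44 for Fads1.

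Averaged over the sexes, 0 of the 9 genes passed the edgeR test for IVF against natural conception, beside 0.00757% of all genes, 0 had an unadjusted p under 0.05, and 0 passed by DESeq2 or limma voom. Scd1 had 0.82 ± 0.79 and Elovl6 0.55 ± 0.33 on the log2 scale. The value of Scd1 turned to -0.22 without both shallow libraries.

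**Figure D3:**
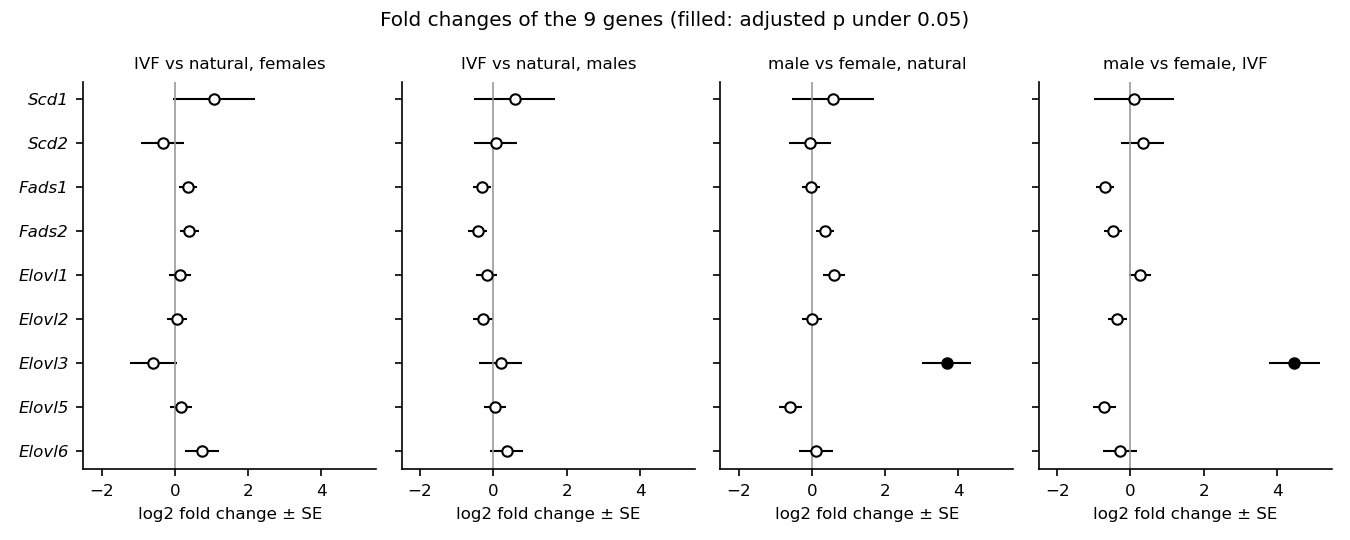
Points give the log2 fold change of each of the 9 genes in 4 comparisons, with bars of 1 standard error from edgeR's quasi-likelihood fit, and filled points mark an adjusted p under 0.05. Elovl3 is the only filled point, at 3.68 (natural) and 4.47 (IVF) in the comparisons of males with females, and the bars of Scd1 reach over 1 log2 unit to each side.

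The second question was how the sexes differed within each mode of conception. Elovl3 was higher in males in both, 12.8-fold after natural conception (log2 fold change 3.68 ± 0.67, adjusted p = 0.0178) and 22.2-fold after IVF (4.47 ± 0.70, adjusted p = 0.00566), by edgeR's quasi-likelihood test with Benjamini-Hochberg adjustment. It was 1 of the 9 genes to pass in each, beside 1.77% of all genes after natural conception and 2.19% after IVF. Genes called higher in males were 0.894% and 0.909% of all genes. DESeq2 and limma voom also called Elovl3 and no other of the 9 genes in these comparisons. Elovl3 was higher in 3 of 3 males than in any female of the same mode of conception, as were 10.1% of all genes after natural conception and 11.8% after IVF. Averaged over the modes of conception it was 16.9-fold higher in males (4.08 ± 0.49, adjusted p = 0.000383 by edgeR). That comparison called 1 of the 9 genes beside 7.20% of all genes, and 3.57% of all genes were called higher in males.

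The call of Elovl3 after natural conception depended on single libraries. It was lost, with edgeR's adjusted p at 0.051 without natural female replicate 1, 0.0641 without natural female replicate 2 and 0.0514 without natural male replicate 3, where the log2 fold change was 3.25, 3.46 and 3.71. Without both shallow libraries it was 3.44 with an adjusted p of 0.06. The call after IVF and the average held in each of the alternatives run, with edgeR's adjusted p of at most 0.0311 and 0.00229 when 1 library was left out. Whether the sex difference of Elovl3 itself differed between the modes of conception was part of the interaction test, in which Elovl3 did not pass.

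After natural conception the other 8 genes did not pass. Elovl1 had a log2 fold change of 0.59 ± 0.30 in males over females, Elovl5 had -0.58 ± 0.31 and Fads2 had 0.36 ± 0.26. After IVF, Fads1, Fads2 and Elovl5 had all 3 males below all 3 females, which 10.1% of all genes had. Their log2 fold changes were -0.69 ± 0.24 for Fads1 (unadjusted p = 0.0162, adjusted p = 0.207 by edgeR), -0.47 ± 0.26 for Fads2 (adjusted p = 0.435 by edgeR) and -0.71 ± 0.31 for Elovl5 (unadjusted p = 0.0401, adjusted p = 0.303 by edgeR). These 3 enzymes of the polyunsaturated series therefore did not pass the test across all genes. With Elovl3, 3 of the 9 genes had an unadjusted p under 0.05 after IVF, beside 14.9% of all genes.

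On average over the modes of conception, Elovl5 was lower in males by edgeR's estimate of -0.65 ± 0.22 on the log2 scale, with an adjusted p of 0.0969. It passed with library size alone as the scaling (-0.87, adjusted p = 0.0386 by edgeR), which moved the median of all genes to -0.22, and by DESeq2 (-0.66, adjusted p = 0.0351). Fads1 had -0.36 ± 0.17 and Elovl1 0.43 ± 0.21, and neither passed.

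The labelled tissue was checked with marker genes, and the markers of other cells are given beside the differences between groups. Of 8 hepatocyte markers 7 were in the table under their symbols, and their summed level was 71400 to 80800 CPM in IVF males, 85000 to 91500 in natural males, 91700 to 105000 in IVF females and 88800 to 99500 in natural females. The summed level of 7 Kupffer cell markers was 98.6 to 154 CPM in IVF males, 174 to 197 in natural males, 216 to 333 in IVF females and 218 to 278 in natural females. Both sums were thus lowest in IVF males, the group in which Fads1 and Fads2 were lowest, and the 6 stellate cell markers were at 177 to 204 CPM there against 291 to 342 in IVF females. Sinusoidal endothelium (7 markers) was at 179 to 198 CPM in IVF males and 223 to 276 in IVF females. The 8 lymphocyte markers ran from 6.15 to 11.8 CPM in IVF males and 15.0 to 21.8 in IVF females, and the 6 cholangiocyte markers overlapped, at 24.0 to 39.2 and 25.3 to 43.0 CPM. The lymphocyte markers were apart in natural males and natural females as well, at 7.87 to 9.41 and 15.0 to 20.9 CPM. There the stellate markers were at 179 to 264 and 239 to 298 CPM. Endothelial markers were at 188 to 222 and 216 to 253 CPM, and cholangiocyte markers at 27.9 to 57.6 and 21.2 to 38.1. The part of these cells in the differences of Fads1, Fads2 and Elovl5 was not tested. Elovl3 and the Scd genes are also expressed in fat. Adipocyte markers (7 genes) summed to 2.49 to 7.39 CPM over all libraries, with Lep and Retn at 0, and overlapped between the sexes. The 7 markers of exocrine pancreas summed to 24.4 to 42.2 CPM in males and 8.69 to 28.2 in females, with Cpb1 and Prss2 at 0, and their part in the sex differences was not tested.

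The remaining enzymes of the elongation cycle complete each round of elongation, and cytochrome b5 and its reductases pass electrons to the desaturases. Of 11 such genes 10 were tested, and 0 passed the edgeR test for IVF in either sex, at an unadjusted p under 0.05 as well and by DESeq2 and limma voom. Hsd17b12, the 3-ketoacyl-CoA reductase of the cycle, was higher in males: it had 145, 159 and 163 CPM in IVF males, 183, 178 and 125 in natural males, 82.2, 105 and 114 in IVF females and 92.1, 60.6 and 83.8 in natural females. Each male lay above each female. It was the 1 gene of the 10 that edgeR called in the average over modes of conception (log2 fold change 0.84 ± 0.15, adjusted p = 0.00706). It was also the 1 called after natural conception (1.04 ± 0.21, adjusted p = 0.0338 by edgeR). Leaving out any 1 library but IVF female replicates 1 and 3 and natural male replicate 3 lost the latter call (adjusted p from 0.0516 to 0.124). Over all genes, 3.57% were called higher in males in the average and 0.894% after natural conception. The median log2 fold change of the 10 genes in the average was -0.08, beside -0.01 over all genes, and 4 of the 10 were above 0. After IVF Hsd17b12 had 0.64 ± 0.21 (adjusted p = 0.176 by edgeR), and the dehydratase Hacd4, at 0.738 to 3.71 CPM in all IVF libraries, had -1.24 ± 0.37 (0.121, and 0.0466 by DESeq2). In the average DESeq2 called Hacd4 as well as Hsd17b12. For IVF in females the smallest unadjusted p were those of Cyb5r1 (-0.69 ± 0.39) and Hsd17b12 (0.34 ± 0.21), and in males those of Hacd4 (-0.60 ± 0.36) and Cyb5b (0.15 ± 0.20).

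The other desaturase and elongase genes were scarce or did not pass. Of 8 listed 6 were tested, and 0 passed in the comparisons made, at an unadjusted p under 0.05 as well and by DESeq2 and limma voom. Scd3, which shares more sequence with Scd1 than the other Scd genes do, had 8.46, 0.208 and 8.59 CPM in IVF females and 8.73, 1.60 and 8.22 CPM in natural males, with the lows in the same livers as those of Scd1. By the smallest unadjusted p, the log2 fold changes of IVF over natural conception were 0.13 ± 0.20 for the sphingolipid desaturase Degs1 and 0.27 ± 0.59 for Fads6 in females, and 0.73 ± 0.91 for Elovl7 and 0.23 ± 0.39 for Fads3 in males. Those of males over females were 0.86 ± 0.60 for Fads6 and -0.75 ± 0.39 for Fads3 after natural conception, and 0.35 ± 0.59 and -0.39 ± 0.39 after IVF.

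Genes that supply the saturated chains did not pass either. All 9 were tested, 0 passed in edgeR or limma voom in the comparisons made, and DESeq2 called 1, the citrate carrier Slc25a1, in the sex average. An unadjusted p under 0.05 was found for 2 of 9 for IVF in females and 1 of 9 in males, beside 3.70% and 2.69% of all genes. Thrsp, a lipogenic protein induced by feeding and thyroid hormone, had 498, 59.7 and 148 CPM in IVF females and 11.0, 19.8 and 96.3 CPM in natural females (log2 fold change 2.47 ± 0.90). Acly, which makes cytosolic acetyl-CoA, had 0.78 ± 0.32. Both had an adjusted p of 1.0 by edgeR, and their highest value in IVF females fell in replicate 1 for Thrsp and in replicate 3 for Acly. The median of the 9 genes was 0.55 for IVF in females and -0.04 in males, beside -0.01 and 0.01 over all genes. In males the smallest p were those of malic enzyme Me1 (0.99 ± 0.37) and Acacb (-0.66 ± 0.41). Between the sexes, Thrsp had 2.79 ± 0.91 and Acly 0.88 ± 0.32 in natural males over natural females (adjusted p = 0.175 and 0.225 by edgeR), and Acacb had -0.82 ± 0.41 and Slc25a1 0.61 ± 0.28 after IVF.

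Acyl-CoA synthetases activate fatty acids before elongation or desaturation. Of 8 listed 7 were tested, and 0 passed for IVF, with 0 at an unadjusted p under 0.05 and 0 by DESeq2 and limma voom. In females Acsl3 had 0.94 ± 0.51 and Acsl4 0.55 ± 0.28, and in males Slc27a2 had -0.19 ± 0.25 and Acsl4 -0.21 ± 0.28. In IVF females Acsl3 was at 83.3 CPM in the shallow replicate 1, against 17.8 and 37.0 in the others. With 1 library left out, its log2 fold change for IVF in females ranged from 0.22 to 1.33. Acsl1, the main synthetase of liver, and Acsl4, which prefers arachidonic acid, were the 2 of 7 called in the average over modes of conception. They were higher in males by 0.92 ± 0.19 (adjusted p = 0.015) and 0.91 ± 0.20 (adjusted p = 0.0193) on the log2 scale by edgeR. In that average 4 of the 7 were above 0, with a median of 0.10, and after natural conception 7 of 7 were, with a median of 0.34. Over all genes, 3.57% were called higher in males in that average, and 0.894% after natural conception. Acsl1 had 1720 to 2390 CPM in IVF males and 616 to 1210 in IVF females, and 1590 to 1940 in natural males and 875 to 1150 in natural females. The call of Acsl4 was lost without IVF male replicate 3 (adjusted p = 0.0525 by edgeR). After natural conception Acsl4 had 1.29 ± 0.28 (adjusted p = 0.043 by edgeR), lost when any 1 library but IVF female replicates 1 and 2 was left out (0.0536 to 0.144). DESeq2 called Acsl1 there as well as Acsl4. After IVF Acsl1 had 1.03 ± 0.27 (adjusted p = 0.0863 by edgeR and 0.00663 by DESeq2) and Acsl4 0.54 ± 0.28.

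Of the genes that control lipid synthesis, all 14 were tested and 0 passed in edgeR or limma voom, with 2 of 14 at an unadjusted p under 0.05 for IVF in females and 1 of 14 in males, beside 3.70% and 2.69% of all genes. Mlxipl encodes the carbohydrate response factor ChREBP. It had 189, 142 and 142 CPM in IVF females, 217, 190 and 294 in natural females, 126, 213 and 191 in IVF males and 114, 124 and 120 in natural males. IVF females lay below natural females, at the nearest 189 against 190 CPM, and IVF males above natural males, at the nearest 126 against 124 CPM. Groups did not overlap, in either direction, in 7.42% of all genes in females and 8.91% in males. The log2 fold changes of Mlxipl were -0.57 ± 0.23 and 0.57 ± 0.23, both with an adjusted p of 1.0 by edgeR. Between natural males and natural females Mlxipl had -0.97 ± 0.23 (adjusted p = 0.0681 by edgeR and 0.00441 by DESeq2). By edgeR it passed with library size alone (-1.30, adjusted p = 0.0155), where the median of all genes was -0.34, and without both shallow libraries (-1.11, adjusted p = 0.0407). Insig1, which retains SREBP in the endoplasmic reticulum, had 1.22 ± 0.50 for IVF in females, and the lipid receptor Pparg had 0.65 ± 0.33 in males. By the same rule, Mlx had 0.37 ± 0.17 between natural males and females and 0.21 ± 0.17 between IVF males and females, and Insig2 had -0.43 ± 0.33 in the latter. In IVF females Insig1 was at 911 CPM in the shallow replicate 1, against 285 and 481 in the others. With 1 library left out, its log2 fold change for IVF in females ranged from 0.68 to 1.90.

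The last step to docosahexaenoic acid is a round of chain shortening in peroxisomes. All 6 genes of this list were tested. None passed for IVF in females (Acaa1b at 0.18 ± 0.40 and Hsd17b4 at 0.11 ± 0.22) or in males (Acaa1b at 0.44 ± 0.40) by edgeR, DESeq2 or limma voom, and 0 had an unadjusted p under 0.05. Scp2, the peroxisomal thiolase and sterol carrier, was the 1 gene of 6 called between the sexes, and it was higher in males. It had 2640, 3070 and 3080 CPM in IVF males, 3230, 2230 and 2190 in natural males, 1130, 1510 and 1250 in IVF females and 1160, 1360 and 1160 in natural females. The groups of the sexes were apart, with log2 fold changes of 1.17 ± 0.22 after IVF (adjusted p = 0.0174), 1.06 ± 0.22 after natural conception (0.0355) and 1.11 ± 0.16 on average (0.00135) by edgeR with Benjamini-Hochberg adjustment. The call after natural conception was lost when any 1 library but IVF female replicates 1 and 2 was left out (adjusted p from 0.0535 to 0.118), and that after IVF without IVF female replicates 1 and 3 and IVF male replicates 2 and 3 (adjusted p from 0.062 to 0.0732), while the average held in all 12 such fits. Over all genes, 0.909% were called higher in males after IVF, 0.894% after natural conception and 3.57% in the average. The median of the 6 genes was 0.18 in the average, where 6 of 6 had a log2 fold change above 0.

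Genes that place acyl chains into lipids did not pass: all 10 were tested, 0 passed in edgeR or limma voom, and DESeq2 called 1, Lpin2, in the sex average. For IVF, 0 of 10 had an unadjusted p under 0.05 in either sex. In females Agpat3 had -0.26 ± 0.16 and Gpam 0.32 ± 0.26, and in males Dgat2 had -0.35 ± 0.39 and Lpin1 -1.26 ± 0.94. Lpin1 was at 816 CPM in natural male replicate 1, against 26.0 and 76.5 in the other natural males. Its value in males ranged from -1.90 to 1.31 with 1 library left out. Between the sexes, Lpin2 had 1.45 ± 0.53 and Gpam 0.61 ± 0.26 after natural conception, and Agpat2 had 0.28 ± 0.20 and Lpin2 0.63 ± 0.52 after IVF. Lpin2 after natural conception rested on natural male replicate 1 (861 CPM, against 168 and 236 in the other natural males), with 0.39 without that library.

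Clock genes were examined because Elovl3 and several lipogenic genes cycle over the day and the hour of collection is not given in the sources used here. Of 15 listed 14 were tested. None passed for IVF in either sex by edgeR, DESeq2 or limma voom, with 5 of 14 at an unadjusted p under 0.05 in females and 1 in males, beside 3.70% and 2.69% of all genes. In females Arntl, the activator of the clock, had -1.57 ± 0.49 and the repressor Per3 1.42 ± 0.45, and in males Nr1d1 had 0.57 ± 0.26 and Cry1 -0.35 ± 0.38. Arntl was at 15.5, 22.2 and 4.23 CPM in natural females against 2.65, 2.10 and 2.21 in natural males, 4.30, 6.69 and 2.91 in IVF females and 2.47, 2.85 and 2.70 in IVF males. Natural female replicates 1 and 2, the livers with most Arntl, had the 2 lowest levels of Thrsp and of Per3, and replicate 3 differed from them in these genes as it did in Scd1 and Scd2. Arntl fell in natural males against natural females by 2.57 on the log2 scale (adjusted p = 0.0244 by edgeR, 0.0754 by limma voom, and 0.0672 to 0.123 without natural female replicate 1 or 2 or any 1 natural male) and in the sex average by 1.69 (0.015, and 0.0522 by limma voom). Per2 rose in males on average by 1.14 ± 0.30 (adjusted p = 0.0411 by edgeR, lost at 0.0512 to 0.102 when any 1 library but IVF female replicate 1, IVF male replicate 2 and natural female replicate 3 was left out). Between natural males and natural females 7 of 14 clock genes had an unadjusted p under 0.05 by edgeR, beside 14.9% of all genes. In the average 6 of 14 did, beside 23.6%, and after IVF 0 of 14, beside 14.9%. After natural conception DESeq2 called Arntl, Ciart, Per1 and Per2, and limma voom called Per2. In the average DESeq2 called Arntl, Per1 and Per2, and limma voom called Per2. After IVF, where Elovl3 differed between the sexes as well, Arntl had -0.79 ± 0.49 and Per2 0.50 ± 0.42 (adjusted p = 0.505 and 0.639 by edgeR). The part of the clock genes in the differences of Elovl3 and Scd1 was not tested.

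How the 9 genes varied together within groups is described by Pearson's r of each library's deviation from its group mean (log2 CPM, 12 libraries), with no test. Both genes of a pair share the depth and scaling of each library. Scd1 and Elovl6 had r = 0.84, and each had r = 0.64 with Scd2. Among the genes of the polyunsaturated series, Elovl2 and Elovl5 had r = 0.89, Fads1 and Elovl2 0.77, Fads2 and Elovl5 0.77, Fads1 and Elovl5 0.69, Fads2 and Elovl2 0.44, and Fads1 and Fads2 0.38. Elovl3 was closest to Fads1 within groups, at 0.82. Scd1 had r = -0.05 with Fads1 and with Fads2, -0.18 with Elovl5 and -0.41 with Elovl2, and Elovl6 had r from -0.38 (Elovl2) to 0.03 (Fads2) with these 4 genes. Scd2 had r = 0.59 with Fads1, 0.25 with Elovl2, 0.26 with Elovl5 and -0.03 with Fads2. IVF female replicate 2 had the lowest Scd1 of all livers (83.1 CPM) and the highest Fads1, Elovl2 and Elovl5 (953, 890 and 748 CPM). Elovl1 had r from -0.64 (with Fads2) to 0.27 (with Scd1).

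**Figure D4:**
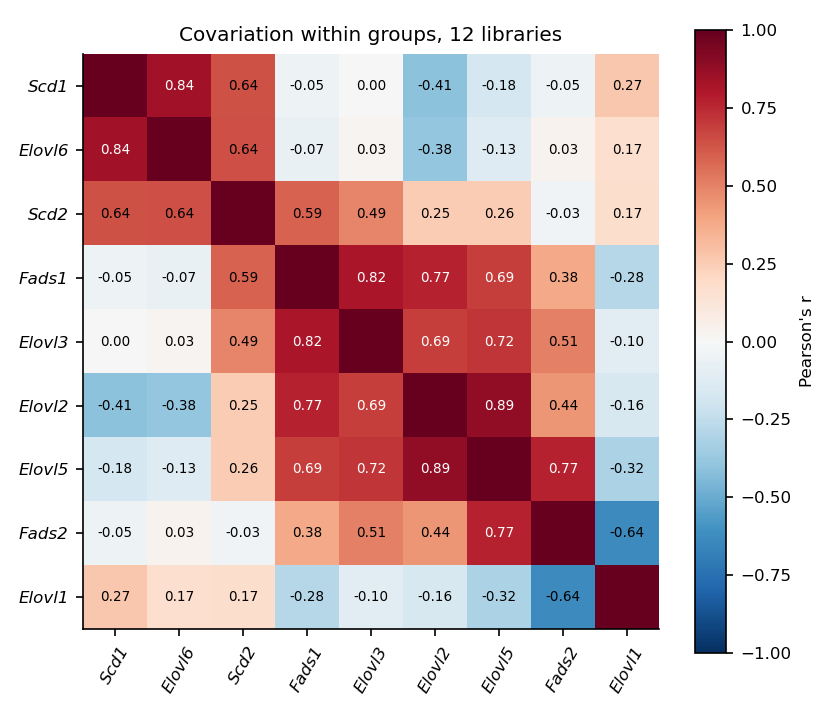
Each cell gives Pearson's r between 2 of the 9 genes over 12 libraries, computed on deviations of log2 CPM from the group mean (red above 0, blue below 0). The pairs among Scd1, Elovl6 and Scd2 have r from 0.64 to 0.84, Scd2 and Fads1 0.59, and Elovl2 and Elovl5 reach 0.89.

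Among the 7363 genes whose mean level reached 10 CPM, the 3 genes most like each of the 9 were taken by Pearson's r of log2 CPM over the 12 libraries, as a description. For Elovl6 the first was Acaca, acetyl-CoA carboxylase, at r = 0.90, followed by Gstm3 (0.85) and Kpnb1 (0.85). For Scd2 they were Arhgdia (0.89), Srebf1 (0.83), which encodes SREBP-1, and Fasn (0.82), fatty acid synthase. For Scd1 they were 2310061I04Rik (0.83), Mcts1 (0.78) and Acaca (0.78). Acaca was thus among the 3 closest genes of both Scd1 and Elovl6. For Elovl3 they were Rassf3 (0.97), Stbd1 (0.95) and the Y-linked gene Ddx3y (0.94), and within groups the r of Ddx3y dropped to 0.44 while that of Stbd1 was 0.88. For Elovl5 the first 2 were 4930523C07Rik (0.95) and Sgms1 (0.94), and for Elovl2 they were Hadh (0.85), Cul7 (0.85) and Isoc1 (0.84). For Fads1 they were Hgfac (0.87), Marcks (0.86) and Dag1 (0.85), for Fads2 Got2 (0.83), Dennd5b (0.79) and Taok1 (0.79), and for Elovl1 Lmf1 (0.91), Ptpn3 (0.89) and Farp1 (0.89).

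The levels behind the first of these likenesses show which livers set them. Acaca had 84.3, 44.0 and 66.6 CPM in IVF females and 45.6, 38.6 and 79.5 CPM in natural females, and the same livers, IVF female replicate 1 and natural female replicate 3, were highest for Acaca and Elovl6 within their groups. Srebf1 had 127, 49.3 and 226 CPM in natural females and 195, 179 and 210 CPM in IVF females. The liver with the least Scd1, IVF female replicate 2, thus had 179 CPM of Srebf1, above the 49.3 CPM of natural female replicate 2 with its 333 CPM of Scd1. Fasn had 504, 243 and 561 CPM in IVF females and 225, 101 and 563 CPM in natural females.

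**Figure D5:**
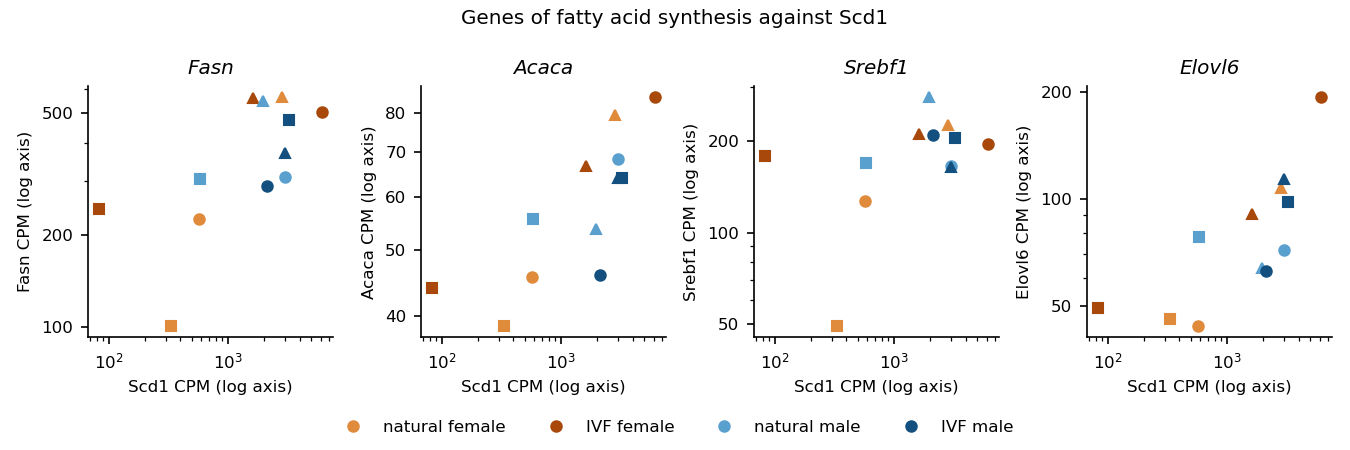
Each panel plots 1 gene against Scd1 in the 12 libraries (CPM, both axes log), coloured by group, with circles, squares and triangles for replicates 1, 2 and 3. IVF female replicate 1, at 6150 CPM of Scd1, is the highest point for Acaca and Elovl6, and IVF female replicate 2, at 83.1 CPM, lies at 179 CPM of Srebf1.

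Ratios within a liver were compared between groups with two-sided exact permutation tests of log2 ratios, which cannot give a p under 0.1 for 3 against 3, and 16 comparisons were made. The ratio of Elovl5 to Elovl2 was 0.657, 0.54 and 0.452 in natural males, 0.68, 0.754 and 0.673 in IVF males, 0.71, 0.929 and 0.884 in natural females and 0.989, 0.84 and 0.93 in IVF females. Natural males lay below natural females (log2 difference -0.62), IVF males below IVF females (-0.39), and natural males below IVF males (0.37 for IVF over natural), without overlap and each with an exact p of 0.1, the smallest possible, and an adjusted p of 0.533. The ratio of Fads1 to Fads2 ran from 1.84 in natural male replicate 1 to 3.55 in natural female replicate 3 and overlapped in all 4 comparisons (exact p of 0.3 to 0.9). The ratios of Scd1 to Scd2 and of Elovl6 to Scd1 overlapped in all 4 comparisons as well, with an exact p of 0.2 to 1.0.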

How the data were processed

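Liver RNA of 12 mice was measured. Per the labels, poly-A RNA libraries were made with a KAPA kit and sequenced on an Illumina NextSeq. The authors deposited 1 table of whole-number read counts per gene symbol, with 1 column per library. The submitters' processing notes name Trimmomatic 0.32, STAR 2.3.0e, featureCounts 1.5.0 and the mm10 build, and the use of strand and of reads with several matches is not given in the sources used here. Columns were assigned by name, and groups came from the labels. No replicate pair of a group was a repeat of 1 library, since counts differed beyond sampling noise (chi-square per degree of freedom of at least 80.7).

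The counts were tested with edgeR 4.0.16 (R 4.3.3): filterByExpr by group, TMM scaling, and 1 quasi-likelihood model with a mean for each of the 4 groups over all 12 libraries, which share 1 estimate of the spread. P-values were adjusted by Benjamini-Hochberg over 13204 genes and called under 0.05. A standard error is the size of the log2 fold change over the square root of its F statistic. Log2 CPM used a prior count of 2. Simulated counts with known changes served to test the code. Alternatives were DESeq2 1.42.0 and its size factors, limma 3.58.1 voom, library size alone, no filter, a mean of at least 1 CPM, an adjusted p under 0.1, the 2 groups alone, and leaving out each library or both shallow ones. An offset for GC content (loess span 0.5, known for 13128 genes) was added after seeing the data.

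The 9 genes and the gene lists were chosen with earlier results of these data known. All 9 are named in every group, and from each list the called genes (at most 4, by size) or otherwise the 2 of smallest unadjusted p, except that 2 genes these rules pick are not reported here. Symbols were matched to GENCODE M21 (GRCm38), 23805 directly and 329 by a synonym, with 393 unmatched. Exons of other annotated genes overlap those of Elovl1 (Cdc20, 53 bases), Elovl3 (Pitx3, 10 bases) and Elovl6 (Gm35986, 34 bases) on the opposite strand.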

Additional observations from a re-analysis of the deposited data

How the results depend on the processing

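No paired analysis was possible because the replicate numbers follow accession order only, and the numbers in the titles are shared by 1 pair of libraries at most (IVF female replicate 1 and IVF male replicate 2), too few for a block. Of 1296 values of the log2 fold changes of the 9 genes under the alternatives, 1201 kept their direction and their side of the threshold, 89 changed sign, 4 lost and 2 gained a call. Without both shallow libraries, IVF over natural conception in females turned to -1.02 for Scd1 and -0.11 for Elovl6, the average over sexes to -0.22 for Scd1 and the interaction to 1.61 for Scd1. The same setting left 0 of the 9 genes called between natural males and females (Elovl3 at 3.44) and turned Fads6 between IVF males and females to -0.0577. With limma voom, the interaction of Scd1 turned to 0.52, and IVF over natural conception in males to -0.0616 for Elovl3 and -0.0433 for Elovl7. In the sex average, 2 of the 9 genes were called with library size alone, with DESeq2 and at an adjusted p under 0.1, the second being Elovl5. Library size alone also moved the median of all genes to -0.34 between natural males and females, -0.10 between IVF males and females, -0.22 in the sex average, 0.14 for IVF in males and 0.23 in the interaction. It made 88 genes higher and 422 lower in males in the former, beside 118 and 116, 252 and 1373 in the latter, beside 472 and 479, and 92 and 221 after IVF, beside 120 and 169. DESeq2 called 678 genes against 234 between natural males and females, 721 against 289 between IVF males and females and 1693 against 951 in the average. The fit to the 2 groups alone called 139 between natural males and females. For IVF, 0 to 5 genes were called in either sex and 0 to 9 in the interaction over all alternatives. The causes were not tested.

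With 1 library left out, IVF over natural conception in females ranged from -0.57 to 2.53 for Scd1, -1.02 to 0.57 for Elovl3 (above 0 without natural female replicate 3), -0.0634 to 0.27 for Degs1, -0.21 to 0.92 for Fads6, -0.19 to 0.53 for Acaa1b and -0.0614 to 0.29 for Hsd17b4. In males it ranged from -0.35 to 0.61 for Elovl3 (below 0 without IVF male replicate 2), -1.08 to 1.27 for Elovl7, -0.0318 to 0.43 for Fads3, -1.90 to 1.31 for Lpin1 and -0.62 to 0.17 for Cry1. The interaction of Scd1 ranged from -1.94 to 1.15, and Fads6 between IVF males and females from -0.10 to 0.82. Between natural males and females 0 to 1 of the 9 genes were called, and over all genes 111 to 263, with 137 to 348 between IVF males and females and 519 to 810 in the average. The smallest libraries limit Elovl3 in females most, with 15 counts at the lowest. Of 1356 values for the other named genes, 1271 kept direction and call.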
